A study of Mus musculus with 24 samples.

Results

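The 47 genes described here build and run the traffic of the primary cilium: the trains of intraflagellar transport (IFT), their motors, the BBSome with its assembly factors, the gate at the ciliary base called the transition zone, and the carriers of lipid-modified cargo. They were listed by gene symbol for their known part in these complexes; the rule uses no measured value, but the list was drawn up with earlier results of these data known. Each of the 47 symbols matched 1 of the 126602 features in the deposited counts (46603 annotated genes and 79999 loci assembled from the reads). Mouse retinal organoids (MROs) are retinal tissue grown in culture, here from the wild-type mouse embryonic stem cell line E14Tg2a, and 24 whole MROs were sequenced one by one after removal of ribosomal RNA, 6 at each of day 20 (D20), D22, D25 and D30. All MROs were controls that received only the solvent, water, and came from 1 independent experiment, so p-values measure the spread among MROs of that experiment. The labels give the groups the same line, treatment and protocol and differ in age, and the titles of the D20 samples lack the mark Ctrl that those of the later days carry, although all are given as controls.

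A primary cilium is an antenna of microtubules on the surface of most cells, and proteins enter it only through the transition zone. The outer segment of rods and cones, the light-sensitive organelle, is an enlarged cilium, and its stalk, the connecting cilium, is a long transition zone through which every outer segment protein must pass. Kinesins carry IFT trains towards the tip and cytoplasmic dynein carries them back, while the BBSome removes proteins that do not belong. Mutations in many of these genes cause retinal degeneration, alone or as part of a syndrome.

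Between 13634846 and 19477108 reads per MRO were counted on features. Levels are given as normalized CPM, the count on a gene scaled to a fixed library size that was corrected by the TMM method, and in comparisons between genes they were divided by the merged exon length in kb. Changes are log2 differences between days ± SE from the quasi-likelihood test of edgeR in 1 fit of all 24 MROs, with p-values adjusted over all 46949 features that reached a mean of 10 normalized counts. A gene is said to rise or fall where its adjusted p was below 0.01, and every adjusted p below comes from this test. All 47 genes passed the filter. Of the 47, 11 share exonic bases with another annotated gene (32 to 2113 bases), and whether the counting used the strand is not given in the sources used here. Replicate 3 of D22 stood apart from the other 5 MROs of its day: it was the highest for 31 of the 47 genes, with a summed level of 4825 normalized CPM against 3407 to 4380. In whole MROs fewer cells of a type and less RNA per cell cannot be told apart.

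Between D20 and D30, 37 of the 47 genes rose, 2 fell (Iqcb1 and Ift52) and 8 did not pass the test. Over all features tested, 26.8% were called in this comparison, and of the annotated genes 25.1% rose and 16.7% fell. The median change of the 47 genes was 0.82 on the log2 scale, against 0.10 for annotated genes, and 20 of the 37 genes at least doubled. Fits under other settings called 33 to 40 of the 47. With scaling and test on annotated genes alone, 33 of the 47 rose and 4 fell. In that fit 3777 annotated genes rose and 3545 fell, in place of 4078 and 2712. In the test of any difference among the 4 days, which called 27.2% of all features and 43.9% of annotated genes, 37 of the 47 passed. The genes are spread over 17 chromosomes.

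**Figure D1:**
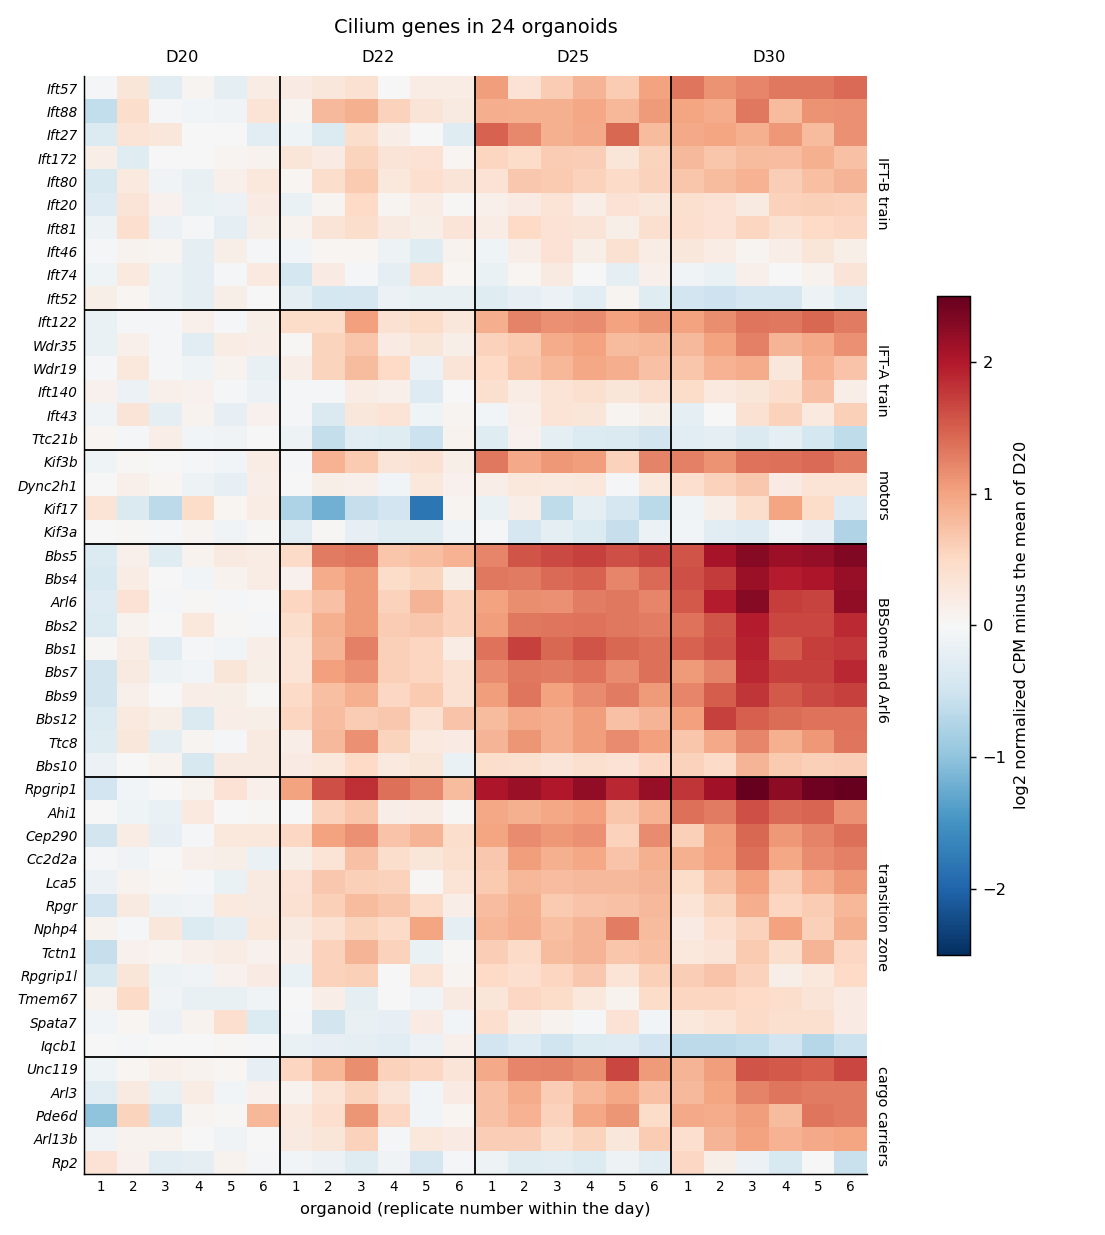
Level of the 47 cilium genes (rows, grouped by role) in each of 24 MROs (columns, by day and replicate number), as log2 normalized CPM minus the mean of the 6 MROs at D20; red is above and blue below D20, and the scale ends at 2.5. The row of Rpgrip1 and most rows of the BBSome and Arl6 turn darkest by D30, while those of Iqcb1 and Ift52 turn blue.

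**Figure D2:**
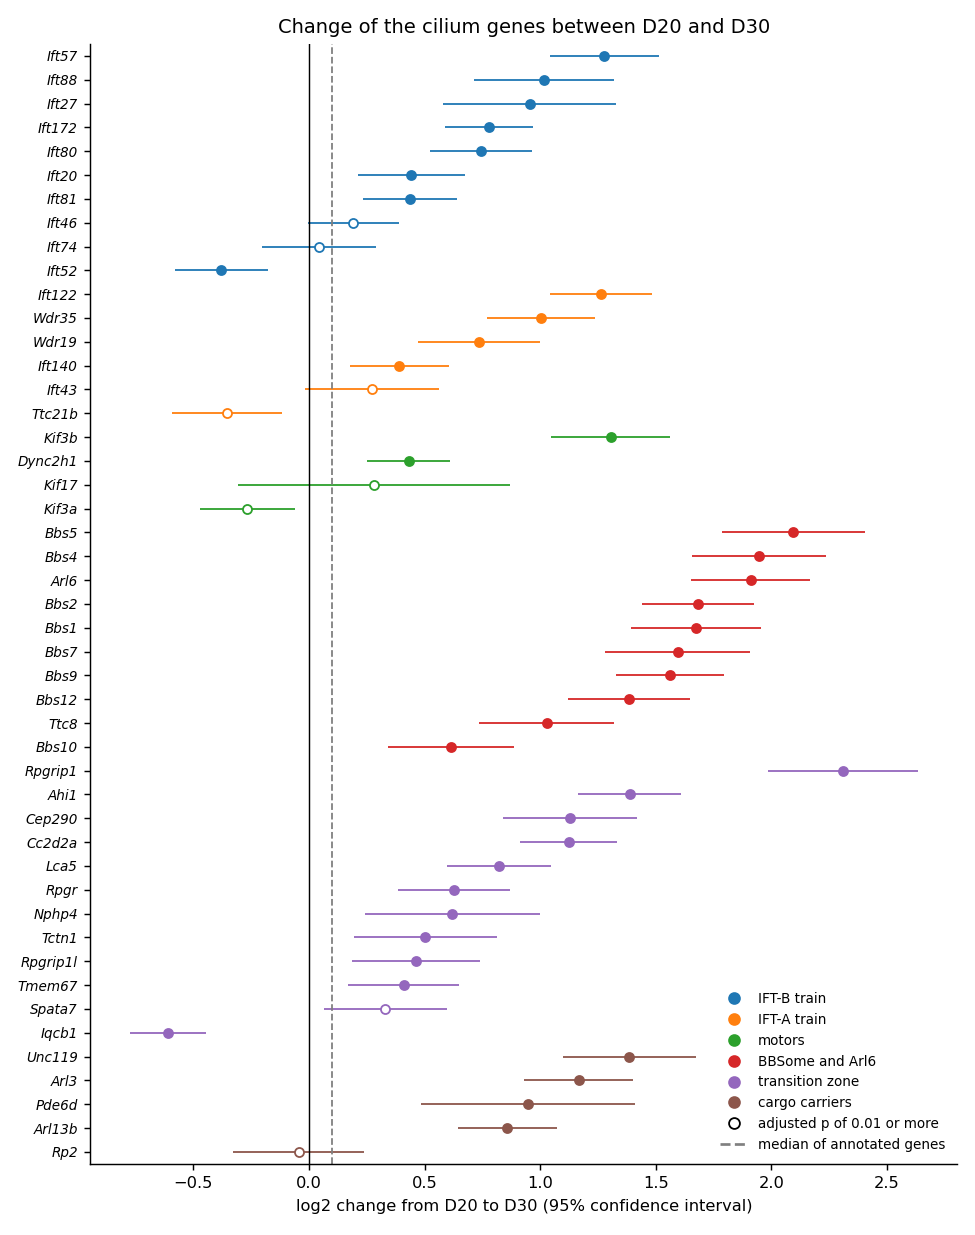
Log2 change from D20 to D30 of each gene (points; bars are 95% confidence intervals of the edgeR fit, n = 6 MROs per day), with open points where the adjusted p was 0.01 or more and a dashed line at the median of annotated genes, 0.10. Rpgrip1 lies farthest to the right at 2.31 and Iqcb1 farthest to the left at -0.61.

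The 300 bases around the start site, 250 before and 50 after it, were available from RefSeq (GRCm38.p6) for 43 of the 47 genes, in 51 windows. They were searched on both strands for 2 short sequences. One is GTTGCC, which reads GGCAAC on the opposite strand, an arm of the X-box that RFX factors, regulators of cilium genes, bind. It was present in 37.3% of the cilium gene windows (19 of 51, in 18 genes), against 12.51% of 32851 windows of all genes in the table. The other is TAATCC, which reads GGATTA on the opposite strand, a site for the photoreceptor regulators CRX and OTX2, which was present in 3 of the 51 windows (5.88%), against 7.06% of all windows. Those 3 windows belong to Rpgrip1, Bbs1 and Unc119. The matches below are shown for these 3 genes and, for the X-box arm, for Bbs1, the subunit gene Bbs7, Ift57 and Kif3a, a gene that did not rise. Each is written 5′ to 3′ on the strand of the gene, with 12 bases on either side and the match in capitals. A match describes letters and does not show binding.
Rpgrip1, GGATTA 28 bases before the start (chr14:52110863-52110892, plus strand): gctaaaaggcctGGATTAgtgtctcctcta
Bbs1, TAATCC 197 bases before the start (chr19:4906807-4906836, minus strand): tcagtctagtctTAATCCctaaaaagcgct
Unc119, GGATTA 118 bases before the second of 3 listed starts (chr11:78345454-78345483, plus strand): tttgctgtttctGGATTAccaggccttgaa
Bbs1, GTTGCC just past the start (chr19:4906609-4906638, minus strand): atggctgagctgGTTGCCaaggcgacgcct
Bbs7, GTTGCC 121 bases before the start (chr3:36613493-36613522, minus strand): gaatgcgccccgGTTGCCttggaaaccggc
Ift57, GTTGCC 87 bases before the start (chr16:49699195-49699224, plus strand): gaggcgggtctgGTTGCCgtggtgaccggc
Kif3a, GTTGCC 98 bases before the start (chr11:53567259-53567288, plus strand): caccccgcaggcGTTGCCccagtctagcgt
The X-box arm was found in 3 of the 10 genes around the BBSome, the group with the largest median rise, in 3 of the 4 motor genes and in 4 of the 8 IFT-B genes with a window. Among the genes that fell or did not rise, Kif3a and Kif17 held the X-box arm. Neither sequence was present in Iqcb1, Ift52, Rp2, Ift46, Ift74, Ift43, Ttc21b and Spata7, and the same holds for Bbs2, Bbs4, Bbs9 and Arl6, which rose. Whether genes that rose differ from the others in these sequences was not tested.

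The BBSome is a coat of 8 subunits that moves membrane proteins out of cilia, and 7 of its subunit genes are among the 47. With the chaperonin-like assembly genes Bbs10 and Bbs12 and with Arl6, whose GTPase brings the coat to membranes, they form a group in which all 10 genes rose between D20 and D30, with a median change of 1.63. Bbs5 (chr2:69647171-69667571), which encodes a phosphoinositide-binding subunit, was measured at 15.2 to 22.6 at D20 (median 20.8), 26.9 to 48.5 at D22 (median 33.8), 44.9 to 63.0 at D25 (median 59.3) and 57.4 to 95.6 at D30 (median 86.6). The ranges of D20 and D30 were far apart, and the change was 2.095 ± 0.15 (adjusted p = 1.39e-12). Bbs4 (chr9:59321990-59353508), a subunit gene that shares 194 exonic bases with Adpgk on the opposite strand, was at 31.1 to 46.4 at D20 (median 41.9), 44.1 to 85.3 at D22 (median 58.0), 95.4 to 113 at D25 (median 104) and 125 to 183 at D30 (median 162). No MRO at D25 or D30 was within the range of the day before it, and the rise over the 10 days was 1.95 ± 0.14 (adjusted p = 1.93e-12). Arl6 (chr16:59612949-59639391) had levels of 46.6 to 74.8 at D20 (median 57.9), 84.8 to 121 at D22 (median 92.1), 116 to 144 at D25 (median 133) and 168 to 281 at D30 (median 209.9). Arl6 rose by 1.91 ± 0.12 (adjusted p = 2.29e-13), and each MRO at D30 exceeded the highest at D25.

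For Bbs1 (chr19:4886878-4906628), the subunit that contacts Arl6, the range was 19.8 to 27.0 at D20 (median 23.78), 27.1 to 56.9 at D22 (median 35.4), 61.0 to 78.2 at D25 (median 64.4) and 66.5 to 91.1 at D30 (median 76.1). The 4 days followed each other with no overlap until D25, and 3 of the 6 MROs at D30 were above the highest at D25. Its change between D20 and D30 was 1.68 ± 0.13 (adjusted p = 2.55e-11). Bbs2 (chr8:94067954-94098928), Bbs7 (chr3:36573142-36613477) and Bbs9 (chr9:22475715-22888280) encode the core from which the coat is assembled. Bbs2 was at 19.6 to 29.9 at D20 (median 24.9), 33.6 to 51.8 at D22 (median 39.0), 51.4 to 63.1 at D25 (median 61.7) and 63.2 to 96.1 at D30 (median 78.9). The lowest MRO at D25 was just below the highest at D22, the lowest at D30 was level with the highest at D25, and Bbs2 rose by 1.68 ± 0.12 (adjusted p = 8.98e-13). Bbs7 was at 33.1 to 55.9 at D20 (median 46.6), 57.4 to 100.5 at D22 (median 67.3), 103 to 118 at D25 (median 113) and 95.6 to 169 at D30 (median 149). D20, D22 and D25 did not overlap, the lowest MRO at D30 was within the range of D22, and the rise was 1.59 ± 0.15 (adjusted p = 6.43e-10). Bbs9 was at 38.5 to 60.0 at D20 (median 56.3), 68.9 to 99.0 at D22 (median 79.6), 106 to 134 at D25 (median 116) and 124 to 183 at D30 (median 160.2). It rose by 1.56 ± 0.11 (adjusted p = 2.36e-12), and D30 overlapped D25 through 1 MRO. Bbs12 (chr3:37312554-37321453), one of the assembly genes, was at 11.2 to 17.1 at D20 (median 15.9), 18.7 to 24.4 at D22 (median 22.6), 23.9 to 29.7 at D25 (median 26.4) and 29.3 to 47.2 at D30 (median 37.4). Every MRO of D22 was above those of D20, and Bbs12 rose by 1.39 ± 0.13 (adjusted p = 3.33e-10). The subunit gene Ttc8 rose by 1.03 ± 0.14 (adjusted p = 6.83e-07) and the other assembly gene, Bbs10, by 0.62 ± 0.13 (adjusted p = 0.000335), the smallest rise of the group. Per kb, Bbs1 was the lowest of the 7 subunit genes and Ttc8 the highest at each day. Their mean levels were 3.13 and 19.5 normalized CPM per kb at D20, a ratio of 6.23, and 9.99 and 39.7 at D30, a ratio of 3.98.

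**Figure D3:**
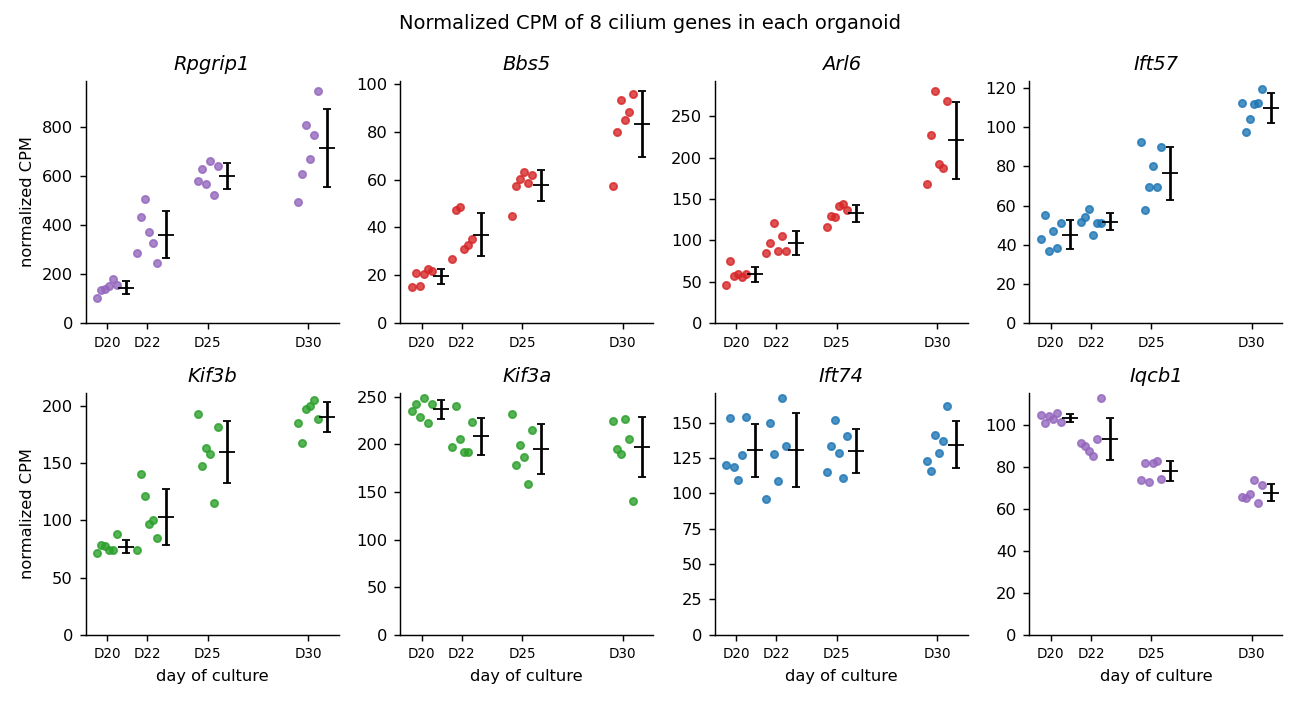
Normalized CPM of 8 cilium genes in each MRO (points) by day of culture, with the mean and SD of the 6 MROs at the right of each day. Rpgrip1, Bbs5, Arl6, Ift57 and Kif3b lie higher at D30 than at D20 in every MRO, Iqcb1 lies lower in every MRO, and the ranges of Kif3a and Ift74 overlap.

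In the transition zone and connecting cilium, 10 of the 12 genes rose, Iqcb1 fell and Spata7 did not pass the test between D20 and D30, with a median change of 0.62. Rpgrip1 (chr14:52110704-52163546) encodes the scaffold that holds Rpgr in the connecting cilium of photoreceptors, and it had the largest change of the 47 genes. It was measured at 102 to 182 at D20 (median 146), 246 to 507 at D22 (median 349.6), 525 to 660.5 at D25 (median 606) and 493 to 947 at D30 (median 719). The lowest MRO at D22 was above the highest at D20, the lowest at D25 was above the highest at D22, and D25 and D30 overlapped. The change from D20 to D30 was 2.31 ± 0.15 (adjusted p = 4.91e-13), about 4.96-fold. Rpgrip1 shares 1057 exonic bases with Supt16 on the opposite strand. Rpgr (chrX:10073621-10216920), its partner and a gene on the X chromosome, was at 58.0 to 95.9 at D20 (median 85.1), 90.5 to 140.4 at D22 (median 117), 127 to 149.5 at D25 (median 136) and 103 to 152 at D30 (median 123). Rpgr rose by 0.63 ± 0.12 (adjusted p = 7.07e-05), its highest median was that of D25, and 208 of its exonic bases also belong to Srpx on the same strand. Cep290 (chr10:100487558-100574840), a component of the links between microtubules and membrane, was at 229 to 379 at D20 (median 334), 427 to 698 at D22 (median 544), 474 to 718 at D25 (median 687) and 477 to 850.5 at D30 (median 708). Every MRO at D22 exceeded the highest at D20, later days overlapped, and the rise by D30 was 1.13 ± 0.14 (adjusted p = 1.13e-07). Cep290 shares 881 exonic bases with 4930430F08Rik on the opposite strand.

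Ahi1 (chr10:20952547-21080429), whose product anchors a transition zone module, was at 101 to 133 at D20 (median 113), 114 to 182 at D22 (median 128), 182 to 229.6 at D25 (median 215) and 249 to 347 at D30 (median 298). D25 and D30 did not overlap for this gene, and its rise over the 10 days was 1.39 ± 0.11 (adjusted p = 1.02e-11). Cc2d2a (chr5:43662346-43740972), a gene of the Meckel syndrome module, was at 53.8 to 66.0 at D20 (median 59.1), 66.3 to 99.0 at D22 (median 77.8), 95.01 to 123 at D25 (median 111) and 112 to 156 at D30 (median 129). No MRO at D22 was as low as the highest at D20, later days overlapped, and it rose by 1.12 ± 0.10 (adjusted p = 2.43e-10). Iqcb1 (chr16:36828385-36872721), also named Nphp5, encodes a binding partner of Cep290. Its levels were 101 to 106 at D20 (median 104), 85.4 to 113 at D22 (median 90.8), 72.9 to 82.8 at D25 (median 78.0) and 62.9 to 73.9 at D30 (median 66.4). The 6 MROs at D30 were all below the lowest at D20, with little spread at either day, and Iqcb1 fell by 0.61 ± 0.08 (adjusted p = 2.79e-07). Among the other genes of the group, Lca5 (lebercilin) rose by 0.82 ± 0.11 (adjusted p = 3.42e-07). Nphp4, Tctn1, Rpgrip1l and Tmem67 rose by 0.62, 0.50, 0.46 and 0.41, and each of these 4 calls was lost in 6 to 8 of the 24 fits that left out 1 MRO. Tctn1 shares 2113 exonic bases with Gm15481 and Hvcn1 on the opposite strand. Spata7, which acts in the distal connecting cilium, changed by 0.33 ± 0.13 (adjusted p = 0.0413).

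IFT-B is the train part that travels with kinesin towards the tip. Of its 10 genes 7 rose, Ift52 fell, and Ift46 and Ift74 did not pass the test, with a median change of 0.59. Ift57 (chr16:49699233-49765126), a gene of the peripheral part of the train, was at 36.6 to 55.4 at D20 (median 45.0), 45.2 to 58.3 at D22 (median 51.3), 57.6 to 92.6 at D25 (median 74.9) and 97.4 to 119.5 at D30 (median 112). All MROs at D30 were above the highest at D25, and the change from D20 was 1.28 ± 0.11 (adjusted p = 1.82e-10). Ift27 (chr15:78159463-78174107) encodes a small GTPase that links the train to the BBSome. Its levels were low and fell into 2 ranges, at 3.78 to 6.04 at D20 (median 4.79), 3.77 to 6.49 at D22 (median 4.58), 8.24 to 13.3 at D25 (median 10.1) and 8.22 to 10.6 at D30 (median 9.34). D20 and D22 overlapped, as did D25 and D30, and no MRO of the later pair of days was as low as one of the earlier pair. The rise by D30 was 0.95 ± 0.18 (adjusted p = 7.77e-05). Ift52 (chr2:163017354-163046141), a gene of the core that holds the train together, was at 48.5 to 64.0 at D20 (median 58.7), 42.6 to 52.1 at D22 (median 49.3), 46.3 to 60.1 at D25 (median 48.6) and 39.9 to 52.3 at D30 (median 43.0). It fell by 0.38 ± 0.10 (adjusted p = 0.00231), with 5 of the 6 MROs at D30 below the lowest at D20, and the call was lost with DESeq2's size factors and without the filter on low counts. The other 5 genes that rose were Ift88, also of the core (1.02 ± 0.14), Ift172 (0.78 ± 0.09), Ift80 (0.74 ± 0.11), Ift20 (0.44 ± 0.11) and Ift81 (0.44 ± 0.10). Ift74 and Ift81 encode partners that bind tubulin together. Ift74 was at 109.7 to 154 at D20 (median 124), 95.7 to 168 at D22 (median 130.4), 111 to 152 at D25 (median 131) and 116 to 162 at D30 (median 133), with a change of 0.04 ± 0.12 (adjusted p = 0.81) and a 95% confidence interval from -0.20 to 0.29.

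IFT-A serves the return journey and the entry of membrane proteins. Of its 6 genes 4 rose, and the median change was 0.56. Ift122 (chr6:115853470-115926699), a gene of the IFT-A core, was at 44.0 to 54.0 at D20 (median 48.0), 59.7 to 99.8 at D22 (median 67.5), 92.5 to 116 at D25 (median 107) and 98.6 to 132 at D30 (median 122). Replicate 3 of D22 was the highest of that day by a wide gap, the others reaching 67.8, and every MRO of D22 was above those of D20. Ift122 rose by 1.26 ± 0.11 (adjusted p = 6.53e-11) over the 10 days. Wdr35 (chr12:8973892-9028847), also named Ift121, was at 69.1 to 94.96 at D20 (median 85.5), 85.1 to 134 at D22 (median 99.0), 124 to 166 at D25 (median 146) and 146 to 199.7 at D30 (median 164). Consecutive days overlapped, D20 and D25 did not, and its rise was 1.00 ± 0.11 (adjusted p = 1.83e-08). Wdr19 (Ift144) and Ift140, both of the core, rose by 0.74 ± 0.13 (adjusted p = 2.47e-05) and 0.39 ± 0.10 (adjusted p = 0.00307), and the call of Ift140 was lost without replicate 5 of D30 and without the filter on low counts. Ift43 changed by 0.27 ± 0.14 (adjusted p = 0.122). Ttc21b (Ift139) was lower in all 6 MROs of D30, at 28.3 to 37.7, than in any of D20, at 41.5 to 49.1, with a change of -0.36 ± 0.11 (adjusted p = 0.014) that missed the threshold.

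Kinesin-2 pulls the trains as a heterotrimer of Kif3a, Kif3b and an accessory subunit. Of the genes of its 2 motor subunits, Kif3b rose and Kif3a did not pass the test. Kif3b (chr2:153291413-153333390) was at 71.5 to 87.8 at D20 (median 75.8), 74.4 to 141 at D22 (median 98.5), 115 to 193 at D25 (median 161) and 168 to 205 at D30 (median 193). All 6 MROs at D30 were above the highest at D20, and Kif3b rose by 1.31 ± 0.12 (adjusted p = 6.86e-10). Kif3a was at 223 to 249 at D20 (median 239), 192 to 240.2 at D22 (median 201), 159 to 232 at D25 (median 193) and 140.2 to 226 at D30 (median 200.5). The 4 ranges overlapped, 4 of the 6 MROs at D30 were below the lowest at D20, and its change was -0.27 ± 0.10 (adjusted p = 0.0342). Per kb, Kif3a was the higher of the pair in every MRO: the ratio of Kif3b to Kif3a was 0.189 to 0.230 at D20 (median 0.208), 0.241 to 0.375 at D22 (median 0.326), 0.463 to 0.541 at D25 (median 0.529) and 0.525 to 0.859 at D30 (median 0.598). The ratios of D20 did not overlap those of any later day. Kif17, a homodimeric kinesin, was the lowest of the 47 genes per kb, at a mean of 0.69 normalized CPM per kb at D20, and changed by 0.28 ± 0.28 (adjusted p = 0.463). Dync2h1, the heavy chain of the dynein that carries trains back, rose by 0.43 ± 0.09 (adjusted p = 0.000175).

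Lipid-modified proteins such as transducin and phosphodiesterase reach the outer segment in soluble carriers, which release them when the GTPase Arl3 is active. Of the 5 genes of this system 4 rose, with a median change of 0.95. Unc119 (chr11:78343482-78349164), the carrier of myristoylated proteins, was at 85.5 to 107 at D20 (median 102), 124 to 221 at D22 (median 145), 190.4 to 313 at D25 (median 224) and 178 to 314 at D30 (median 281). D20 lay below every MRO of the later days, the range of D25 reached nearly that of D30 through 1 MRO at 313, and the rise by D30 was 1.39 ± 0.14 (adjusted p = 2.07e-09). Arl3 (chr19:46531096-46573198) was at 44.2 to 61.8 at D20 (median 53.2), 50.5 to 77.8 at D22 (median 63.6), 81.2 to 102 at D25 (median 90.7) and 92.2 to 133 at D30 (median 128). No MRO at D25 was within the range of D22, and Arl3 rose by 1.17 ± 0.11 (adjusted p = 1.15e-09). Pde6d, the carrier of prenylated proteins, rose by 0.95 ± 0.22 (adjusted p = 0.00102), and Arl13b, the activator of Arl3, by 0.86 ± 0.10 (adjusted p = 6.09e-08). Rp2, which switches Arl3 off, changed by -0.04 ± 0.14 (adjusted p = 0.834), with a 95% confidence interval from -0.33 to 0.24.

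In the first step, D22 against D20, 13 of the 47 genes rose and none was called as falling, where 1.90% of all features were called and 2.56% of annotated genes rose and 0.763% fell. At an unadjusted p below 0.05, 3 of the 47 were lower. DESeq2 called 16 of the 47 higher and 0 lower (1624 of all features called, in place of 894). The 13 genes were 8 of the 10 around the BBSome (Bbs1, Bbs2, Bbs4, Bbs5, Bbs7, Bbs9, Bbs12 and Arl6), the transition zone genes Rpgrip1, Cep290 and Rpgr, the IFT-A gene Ift122, and Unc119. Rpgrip1 changed most, by 1.33 ± 0.15 (adjusted p = 4.24e-06), followed by Bbs5 with 0.92 ± 0.14 (adjusted p = 0.000185) and Cep290 with 0.77 ± 0.14 (adjusted p = 0.000753). The smallest changes among the 13 were those of Rpgr, 0.51 ± 0.12 (adjusted p = 0.00878), Ift122, 0.53 ± 0.11 (adjusted p = 0.00248), and Bbs4, 0.58 ± 0.14 (adjusted p = 0.00991). Without replicate 3 of D22, 6 genes passed the test, and 444 of all features were called in place of 894. That MRO was above the mean of its day for 40 of the 47 genes, and its sum over 12 photoreceptor markers was 4929 normalized CPM, against 2325 to 3896 in the other 5. The genes called in every fit were Arl6, Bbs2, Bbs5, Bbs9, Cep290 and Rpgrip1, whereas the call of Bbs4 was lost in 21 of the 24 fits that left out 1 MRO and that of Rpgr in 15.

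Between D22 and D25, 16 genes rose and none was called as falling, while 5.28% of all features were called and 7.33% of annotated genes rose and 2.92% fell. With scaling and test on annotated genes alone, 12 of the 47 rose and 1 fell, and among all annotated genes 1025 rose and 970 fell in place of 1191 and 474. At an unadjusted p below 0.05, 1 gene, Iqcb1, was lower. DESeq2 called 17 of the 47 genes higher and 0 lower (3629 of all features called, in place of 2478). The largest change was that of Ift27, 1.15 ± 0.18 (adjusted p = 8.93e-05), which had changed by -0.02 ± 0.18 in the step before. Bbs1 followed with 0.81 ± 0.13 (adjusted p = 0.00013), then Bbs4 with 0.77 ± 0.14 (adjusted p = 0.000318) and Rpgrip1 with 0.73 ± 0.15 (adjusted p = 0.0013). Kif3b, Ahi1, Ift122, Ift57, Arl3, Wdr35 and Cc2d2a rose by 0.64, 0.60, 0.57, 0.56, 0.55, 0.47 and 0.46, and the other 5 were Bbs2, Bbs5, Bbs7, Bbs9 and Unc119. Called in every fit were 11 of the 16, and leaving out 1 MRO gave 11 to 18 calls. Bbs7, Unc119 and Wdr35 lost theirs in 11, 8 and 7 of the 24 fits.

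From D25 to D30, 5 genes rose and none was called as falling, against 3.51% of all features called, 4.55% of annotated genes rising and 2.83% falling. On annotated genes alone the 5 were again called, and 742 annotated genes rose and 740 fell in place of 739 and 460. At an unadjusted p below 0.05, Iqcb1 was the 1 gene lower. DESeq2 called 10 genes higher and 0 lower (2378 of all features called, in place of 1647). The 5 genes were Arl6 with 0.73 ± 0.12 (adjusted p = 0.000118), Bbs4 with 0.60 ± 0.13 (adjusted p = 0.00402), Bbs12 with 0.52 ± 0.12 (adjusted p = 0.00661), Ift57 with 0.52 ± 0.11 (adjusted p = 0.00277) and Ahi1 with 0.49 ± 0.10 (adjusted p = 0.00284). Arl6 was called in every fit, and it was the only one of the 5 for which that held. The count was 2 without replicate 2 of D25 and 2 without its replicate 5, 3 without replicate 3 of D30, and 10 without replicate 1 of D30. In that order these fits called 1227, 1163, 1385 and 1342 of all features, in place of 1647. The 3 steps share MROs (D22 belongs to the first 2 and D25 to the last 2), so a high or low MRO enters neighboring steps with opposite sign. Over the 3 steps, 1 gene, Bbs4, was called in all 3 (its first-step call being the one lost in 21 of 24 fits), 12 in 2, 7 in 1 and 27 in none, and 19 of the 27 passed the test between D20 and D30. The same tally over all features was not made, so how unusual these numbers are cannot be said.

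The intervals D20 to D25 and D25 to D30 are both 5 days long, and the difference of their changes was tested directly. The earlier change was called the larger for 8 of the 47 genes, and no gene was called in the other direction. Over all features 2.02% were called, and of annotated genes 2.98% with the larger change early and 0.892% with it late. Called or not, the difference was positive for 38 of the 47, with a median of 0.42, against 0.003 for annotated genes. At an unadjusted p below 0.05 none of the 47 genes had the larger change late. DESeq2 called 11 genes early and 0 late (1534 of all features called, in place of 947). Both intervals share D25. Rpgrip1 differed most: it changed by 2.06 in the first interval and by 0.25 in the second, a difference of 1.81 ± 0.25 (adjusted p = 3.15e-05). Ift27 changed by 1.12 and then by -0.17, a difference of 1.29 ± 0.30 (adjusted p = 0.00784). Bbs1 changed by 1.47 and 0.20, a difference of 1.27 ± 0.22 (adjusted p = 0.000536). For Unc119, Bbs5, Ift122, Bbs2 and Rpgr the differences were 1.07 ± 0.23, 1.03 ± 0.24, 0.94 ± 0.18, 0.85 ± 0.19 and 0.85 ± 0.20. Arl6, by contrast, changed by 1.18 and 0.73, and the difference of 0.44 ± 0.21 (adjusted p = 0.278) did not pass the test. The 3 genes with a TAATCC match before a start site are all among the 8, which was seen after both results were known. That sequence was no more frequent in the cilium gene windows (5.88%) than in all windows (7.06%), and its part in the changes was not tested. Rpgrip1, Bbs1 and Ift122 were called in every fit. The count of 8 was sensitive to single MROs: it was 3 without replicate 2, 3 or 4 of D25, 4 without replicate 1 of D20 or replicate 1, 2, 4 or 5 of D30, and 5 without replicate 3 or 4 of D20 or replicate 5 or 6 of D25. Over all features, the fits without replicate 2, 3 or 4 of D25 called 674, 730 and 574, in place of 947.

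**Figure D4:**
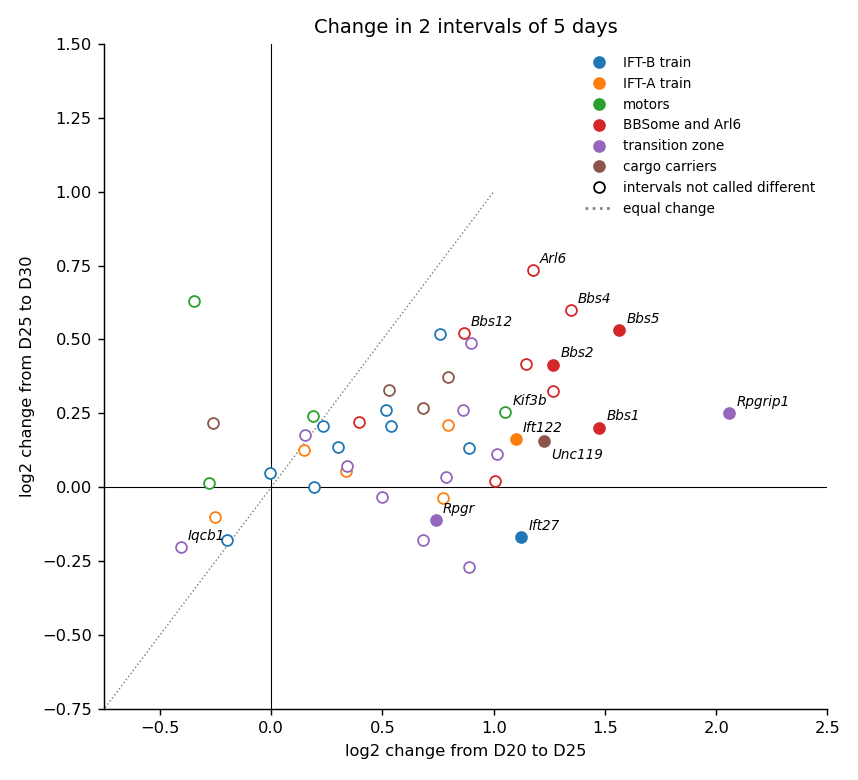
Log2 change from D20 to D25 (horizontal) and from D25 to D30 (vertical) of each of the 47 genes, colored by role; filled points passed the test of the difference, and the dotted line marks equal change. The 8 filled points lie to the right of the line, Rpgrip1 farthest at 2.06 and 0.25.

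The cilium genes differed in level by about 2 orders of magnitude. Per kb, the lowest mean at D30 was that of Kif17 (0.836 normalized CPM per kb) and the highest were those of Unc119 (105) and Arl6 (105), which did not differ beyond their spread. At D20 the highest were Kif3a (66.0), Ift74 (49.1) and Unc119 (40.4). The median over the 47 genes went from 8.75 normalized CPM per kb at D20 through 12.2 and 16.1 to 17.8 at D30. The median coefficient of variation among the 6 MROs of a day was lowest at D25, with 9.01%, and 14.9%, 16.3% and 13.5% at D20, D22 and D30, whereas annotated genes of at least 1 CPM had 16.8% at D25 and 17.96%, 19.9% and 20.7% at those days. The annotated genes were not matched to the cilium genes in level, so the lower spread is not shown to be particular to cilium genes. Kif17 varied most at D22, D25 and D30 and Pde6d at D20, and the smallest value was that of Iqcb1 at D20, 1.93%.

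Markers of cell types moved over the same days, and their part in the changes of the cilium genes was not tested. The summed level of 12 rod and cone markers climbed from 1244 to 1920 normalized CPM at D20 through 2325 to 4929 and 4799 to 5901 on the middle days and reached 4625 to 8532 by D30, and 11 of the 12 rose between D20 and D30 (Crx did not pass the test). All 9 markers of dividing progenitors fell, from a sum of 840 to 1393 at D20 to 279 to 480 at D30, and 5 of 6 Müller glia markers rose, from 422 to 582 to between 1152 and 4101. Cells with many motile cilia use the same transport machinery, and their 15 markers summed to 110 to 135 at D20 and 459 to 750 at D30, and 8 of the 12 that passed the filter rose, Dnah9 (26.8 ± 7.51 to 313 ± 87.2, mean ± SD) and Ccdc39 (53.8 ± 7.93 to 174 ± 30.7) making up most of the sum. None of the 12 fell and 4 did not pass the test, and 9 of the 12 changes were positive, the lowest being -0.92 on the log2 scale. Of the markers that define such cells, Foxj1 went from 0.921 ± 0.872 to 7.63 ± 3.63, and the axoneme genes Rsph4a, Dnah5 and Hydin went from 0.179 ± 0.133, 0.432 ± 0.457 and 0.543 ± 0.531 to 5.18 ± 2.89, 5.17 ± 3.90 and 4.05 ± 1.18. Deup1 and Ccno, which serve the making of many basal bodies and were too low to be tested, went from 0.0233 ± 0.0571 and 0.224 ± 0.251 to 0.767 ± 0.581 and 1.33 ± 0.911. All 4 choroid plexus markers that passed the filter rose, from a sum over 5 markers of 2.56 to 24.7 at D20 to between 28.9 and 2662 at D30. Of 8 markers of inner retinal neurons 5 rose and 1 fell, with sums of 53.0 to 92.2 at D20 and 132 to 207 at D30, and of 5 markers of cortical neurons 1 rose, with sums of 37.8 to 208 and 204 to 422. None of the 3 pigment epithelium markers tested was called by edgeR, 1 of them, Tyrp1, being higher at D30 at an unadjusted p of 0.0109, and the 6 listed markers summed to 3.44 to 65.3 at D30, with Rpe65 at 0 in all 6 of D20.

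**Figure D5:**
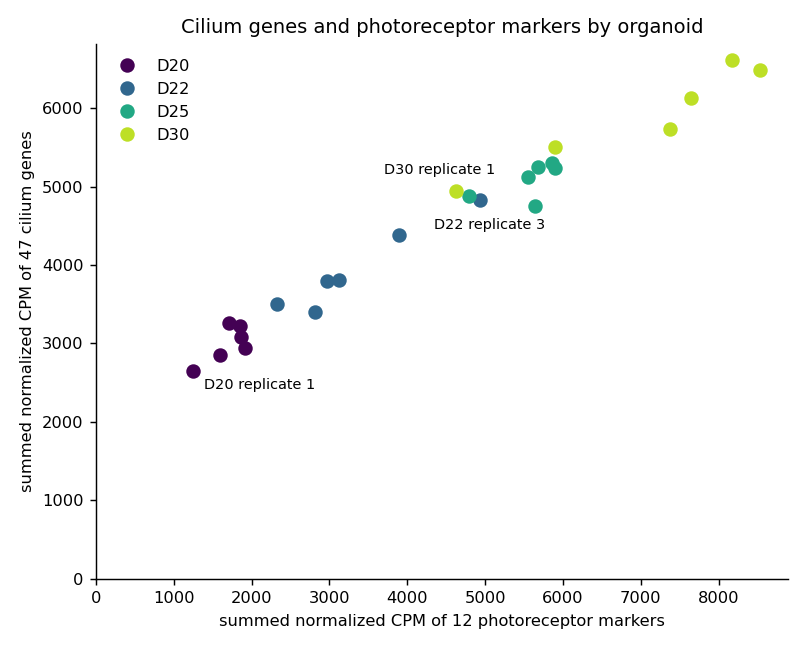
Summed normalized CPM of the 47 cilium genes (vertical) against that of 12 photoreceptor markers (horizontal) in each of 24 MROs, colored by day. Replicate 3 of D22, at 4825 and 4929, lies among the MROs of D25, and replicate 1 of D30, at 4948 and 4625, is the lowest of its day on both axes.

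A list of 62 further genes of the same pathways, chosen by function, gave 61 tested genes. Between D20 and D30, 34 of them rose and 9 fell, with a median change of 0.53. Over the same days 26.8% of all features were called, and 25.1% of annotated genes rose and 16.7% fell. The steps of the 61 genes gave 6 rising and 0 falling (9.84%, against 1.90% of all features), 8 and 1 (14.8%, against 5.28%), and 1 and 1 (3.28%, against 3.51%). Of annotated genes, 2.56% rose and 0.763% fell in the first step, and 7.33% and 2.92% in the second. In the last step 4.55% of them rose and 2.83% fell. Kifap3, the accessory subunit of kinesin-2, rose by 1.20 ± 0.13 (adjusted p = 8.31e-09), from 94.8 ± 10.4 to 217 ± 36.4 normalized CPM. Of 4 other BBS genes 3 rose, among them Bbip1, which encodes the remaining BBSome subunit (0.44 ± 0.12). Among 22 further genes of the transition zone and ciliary base 13 rose, led by B9d1 with 1.44 ± 0.20 (adjusted p = 6.87e-07) and Tmem107 with 1.23 ± 0.26 (adjusted p = 0.000307), and 1 fell: Cep83, a distal appendage gene that anchors the basal body, by 1.33 ± 0.13 (adjusted p = 1.02e-09). The 8 genes of the photoreceptor axoneme and of related ciliopathies all passed the test, 6 rising and 2 (Topors and Cfap418) falling. Rp1, which builds the axoneme of the outer segment, rose from 495 ± 177 to 4539 ± 994 normalized CPM, a change of 3.20 ± 0.24 (adjusted p = 6.63e-12), and Fam161a, of the connecting cilium, rose by 2.69 ± 0.17 (adjusted p = 1.99e-13).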

How the data were processed

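Total RNA of single MROs was depleted of ribosomal RNA and sequenced as strand-specific single-end libraries. Per the labels, the authors trimmed reads with cutadapt 1.5, aligned them to GRCm38 with HISAT2, assembled transcripts with StringTie 1.3.3 and counted reads per gene with HTSeq 0.6.1. They deposited raw counts, 1 column per MRO, on annotated genes (GENCODE) and assembled loci. Here features whose normalized counts averaged 10 or more were fitted with edgeR 4.0.16 (R 4.3.3; TMM, quasi-likelihood test, 1 fit of 24 MROs, no covariates), and p-values were adjusted by the Benjamini-Hochberg method over 46949 features at a threshold of 0.01. Reads of 13634846 to 19477108 per MRO put 3 counts at no more than 0.22 CPM. No pair of MROs agreed within sampling noise. The 47 genes and the other lists were chosen with earlier results of these data known. Full values are given for genes called between consecutive days or intervals and for the 10 largest rises and falls from D20 to D30 (with 100 or more normalized counts on average). Alternatives were DESeq2's size factors, DESeq2 1.42.0, no filter, filterByExpr, annotated genes only, a replicate block and leaving out each MRO.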

Additional observations from a re-analysis of the deposited data

Results flagged for a closer look

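Of 188 sets of 6 MROs (47 genes at 4 days), 12 held 1 MRO that stood apart from the rest by Dixon's criterion at the 95% level, where chance gives about 1 in 20, or 9.4. All values are normalized CPM. The 12 fell on 8 MROs.

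At D20, replicate 1 was low for Bbs9, at 38.53 against 52.55 to 59.97 in the other 5 MROs, and for Tctn1, at 16.78 against 26.07 to 28.31. Replicate 2 was high for the transition zone gene Tmem67, at 42.11 against 26.65 to 32.23. At D22, replicate 3 was high for Ift122, at 99.77 against 59.68 to 67.83, and replicate 6 was high for Iqcb1, at 113.0 against 85.4 to 93.37.

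At D25, replicate 1 was low for 2 BBSome subunit genes, with Bbs2 at 51.41 against 60.03 to 63.13 and Bbs5 at 44.93 against 57.17 to 63.02. Replicate 2 was high for Ttc21b, at 46.99 against 32.15 to 37.51. Replicate 5 was high for Unc119, at 312.8 against 190.4 to 231.9, and for Nphp4, at 17.41 against 12.03 to 13.39, and low for Dync2h1, at 171.1 against 198.0 to 213.1. At D30, replicate 1 was low for Arl13b, at 67.89 against 91.51 to 101.8.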

How the results depend on the processing

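The count of cilium genes called from D20 to D30 was 33 to 39 under the other settings and 35 to 40 when 1 MRO was left out, and 33 genes were called in every setting. With 1 MRO left out, the first step gave 6 to 15 genes, the second 11 to 18, the last 2 to 10, the difference of the 2 intervals 3 to 10, and the test of any difference 34 to 38. The count for D25 to D30 was 8 with DESeq2's size factors, 10 with DESeq2's test, 3 without a filter and 8 with a replicate block, in place of 5, and that for the difference of the 2 intervals was 5 with DESeq2's size factors, in place of 8. The cause was not tested. Ift74 (0.04 from D20 to D30) turned to -0.03123 on annotated genes alone, and leaving out 1 MRO gave -0.01499 to 0.09366. Rp2 (-0.04) turned to 0.0207 with DESeq2's size factors and 0.02078 with DESeq2's test, and leaving out 1 MRO gave -0.1736 to 0.04487. Neither passed the test in any of these. Of 96 changes between consecutive days that passed in no setting at all, 18 changed sign under some setting, the largest of them 0.07 (log2). Median levels and spread moved by less than their error with DESeq2's size factors.

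Replicate numbers only name MROs: over 36 pairs of days and numbers, deviations from the day means correlated at -0.08 to 0.21, 1 of them over 0.1. In 6 of the 36 pairs the earlier MRO correlated best with the later MRO of its own number. The replicate block gave 14, 17 and 8 calls in the 3 steps, 38 from D20 to D30, 12 for the difference of intervals and 38 for any difference. The SE of a change from D20 to D30 was 0.08 (Iqcb1) to 0.28 (Kif17, the gene of lowest level per kb), which limits what 6 MROs per day can show.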

Other observations

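The RFX and FOXJ1 families include factors known to drive cilium genes. Of 7 factors of these families, 4 rose and 1 fell between D20 and D30. In this comparison 26.8% of all features were called, and 25.1% of annotated genes rose and 16.7% fell. Rfx4 was at 0.0662 ± 0.132 normalized CPM at D20, below the level of 3 counts, and at 5.72 ± 5.43 at D30 (mean ± SD, n = 6), and it passed the test, with no fold given because of the low start. Foxj1, the regulator of motile cilia, rose by 3.05 ± 0.54 (adjusted p = 3.19e-05), Rfx2 by 1.15 ± 0.24 (adjusted p = 0.000345) and Rfx1 by 0.89 ± 0.24 (adjusted p = 0.00379). Rfx7 fell by 0.55 ± 0.12 (adjusted p = 0.000701). Rfx3 changed by 0.16 ± 0.12 (adjusted p = 0.305), from 112 ± 4.28 to 124 ± 29.7 normalized CPM.

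Of 6 genes whose products take cilia apart before division, 4 fell and 1 rose between D20 and D30. The background is again 26.8% of all features called, with 25.1% of annotated genes rising and 16.7% falling. Aurka fell by 1.25 ± 0.18 (adjusted p = 1.48e-06), Nek2 by 1.23 ± 0.29 (adjusted p = 0.000929), Plk1 by 1.02 ± 0.27 (adjusted p = 0.00371) and Kif24 by 0.80 ± 0.16 (adjusted p = 0.000136). Kif2a rose by 0.69 ± 0.12 (adjusted p = 1.70e-05). All 9 markers of dividing progenitors fell over the same days, and their part in these falls was not tested.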
